A study of Mus musculus with 16 samples.

Results

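Protein folding genes of the unfolded protein response were examined in inguinal subcutaneous adipose tissue (SAT) and mesenteric visceral adipose tissue (VAT) of lean and obese mice. The gene set comprised 38 genes, chosen by symbol from the RefSeq transcript rows of the expression table, among 35569 gene symbols in the whole table. It held 14 chaperones and folding enzymes of the endoplasmic reticulum (ER), 3 ER stress sensors, 8 stress transcription factors and their targets, 4 genes of ER-associated degradation, 7 cytosolic chaperones and 2 mitochondrial chaperones. All mice were WT male C57BL/6J animals, 4 per diet, placed on their diets at 10 weeks of age for 12 to 14 months. The obese mice received a high-fat diet with 42% of kcal from fat and 0.2% cholesterol, and the lean mice a normal laboratory diet. Each mouse gave 1 SAT library, from both inguinal depots combined, and 1 VAT library, for 4 libraries in each of the 4 groups and 16 in all. The study asked how a long high-fat diet alters gene expression in each of these depots.

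Proteins that enter the secretory pathway fold in the ER with the help of chaperones such as BiP (Hspa5) and GRP94 (Hsp90b1), the lectins calreticulin and calnexin, and disulfide isomerases. When unfolded protein accumulates there, the membrane sensors IRE1 (Ern1), PERK (Eif2ak3) and ATF6 raise the transcription of ER chaperones and degradation factors through XBP1 and cleaved ATF6, and of stress genes through ATF4. The cytosol and the mitochondria have chaperones of their own, whose transcription answers to heat shock factor and to mitochondrial stress. Adipocytes secrete adipokines in bulk, and antibody-secreting plasma cells are a textbook example of a cell type rich in ER chaperones. The sensors are switched on by phosphorylation or cleavage, and XBP1 by splicing of its mRNA, none of which these counts measure.

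Promoters were searched for the DNA elements through which these pathways are known to act. The genes were chosen as known genes of these pathways, and the ER stress response element (ERSE) was first defined in promoters of ER chaperones, so its share among them is a description and not independent of the choice. The RefSeq promoter sequences of build GRCm38.p6, from 250 bases before to 50 bases after the start site, covered 33 of the 38 genes and 27025 genes in all. The ERSE was searched on both strands as CCAAT, any 9 bases, then CCACG. It stood in the promoters of 7 of 12 ER chaperones and of 1 of 4 genes of ER-associated degradation, but of 0 of the other 17 genes with an entry, and in 37 (0.137%) of all promoters. The promoters of Sdf2l1, Pdia3, Pdia4, Dnajb9 and Dnajb11 were searched without a match to it, and those of Manf and Hyou1 were not analysed here. Each match is printed on the coding strand of its gene, with the conserved parts in capitals, which read CGTGG and ATTGG where the element lies on the other strand.
Hspa5, chr2:34772015-34772053, plus strand: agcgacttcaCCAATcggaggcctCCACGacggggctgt
Hsp90b1, chr10:86705628-86705666, minus strand: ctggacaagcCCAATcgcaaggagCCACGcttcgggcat
Hsp90b1, chr10:86705523-86705561, minus strand: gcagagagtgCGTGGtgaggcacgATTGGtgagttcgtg
Calr, chr8:84847065-84847103, minus strand: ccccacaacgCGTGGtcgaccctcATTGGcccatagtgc
Canx, chr11:50325790-50325828, minus strand: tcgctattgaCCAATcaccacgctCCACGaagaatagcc
Pdia6, chr12:17266481-17266519, plus strand: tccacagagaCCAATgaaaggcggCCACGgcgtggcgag
Dnajc3, chr14:118937817-118937855, plus strand: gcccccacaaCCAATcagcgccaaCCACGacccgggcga
Creld2, chr15:88819510-88819548, plus strand: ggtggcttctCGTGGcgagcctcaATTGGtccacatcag
Syvn1, chr19:6046522-6046560, plus strand: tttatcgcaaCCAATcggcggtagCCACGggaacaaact

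A second form, ERSE-II, was searched as ATTGG, any 1 base, then CCACG. It stood in 12 (0.0444%) of all promoters, among them those of Herpud1 and, just after its start site, Dnajb11. The heat shock element was searched as GAA, any 2 bases, TTC, any 2 bases, GAA, which is found in 179 (0.662%) of all promoters. The mitochondrial chaperones Hspd1 and Hspe1, which lie head to head, shared 1 such stretch between them, and Hsph1 had 1 after its start site. The promoters of Hspa1a, Hspa1b, Hspb1 and Dnajb1 held no match to this strict form. The element of XBP1 (TGACGTGG, in 0.714% of all promoters) and that of ATF4 and CHOP (TGATG, any 1 base, AAT, in 1.08%) had no match in the 33 promoters. Both matches that follow are printed to show the short ERSE form and the shared heat shock element, on the coding strand of Herpud1 and Hspe1.
Herpud1, chr8:94386367-94386397, plus strand: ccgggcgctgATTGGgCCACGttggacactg
Hspe1, chr1:55088049-55088086, plus strand: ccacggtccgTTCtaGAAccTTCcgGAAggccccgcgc

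Expression was read as counts per transcript row, shown here as CPM, the count scaled to a common library total, after trimmed mean of M-values (TMM) scaling. Library totals ran from 1256082 to 16614407 counts, so that 1 count equalled 0.0602 to 0.796 CPM before scaling, and 2 VAT libraries, lean replicate 1 and obese replicate 1 with 2247737 counts, were shallow. Of the 38 genes, 34 had a row that passed the filter of more than 1 CPM in at least 3 libraries, while Eif2ak3, Atf6, Syvn1 and Hsph1 did not. Several of the 18 genes with more than 1 transcript row held few counts, 189 over all 16 libraries for Hspa5, 97 for Hyou1 and 92 for Pdia4, against 203675 for Hsp90b1, which has 1 row. Reads shared by transcripts of 1 gene can go uncounted in such a table, and low values of these genes are not read as low expression. All 8 adipocyte markers were detected in every group, and their summed level was 40516 to 57317 CPM in lean SAT and 20834 to 34079 CPM in lean VAT. In bulk tissue, fewer cells of a type and less RNA per cell cannot be told apart.

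In VAT, 4 ER chaperones and the stress transcription factor Atf3 were higher in obese than in lean mice. Among the 34 tested genes, 5 were called higher and 0 lower in VAT at a Benjamini-Hochberg adjusted p below 0.05 by edgeR's quasi-likelihood F-test, where 6.84% of all 13288 tested rows were called higher and 4.08% lower. Unadjusted p was below 0.05 in the lower direction for 2 genes, Ddit3 and Hspd1, and DESeq2 called 0 lower as well. In SAT, 5 genes were called higher (Canx, Atf3, Chac1, Sesn2 and Sel1l) and 1 lower (Ddit3), against 6.21% and 4.84% of all rows. Atf3 was the 1 gene called in both depots, and the 2 comparisons share no library but rest on SAT and VAT of the same 8 mice, so they are not independent of each other. With the further limit of a log2 fold change beyond 1.5 in VAT, Atf3 was the 1 member left, where 2.33% of all rows passed it in the higher and 0.835% in the lower direction.

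**Figure D1:**
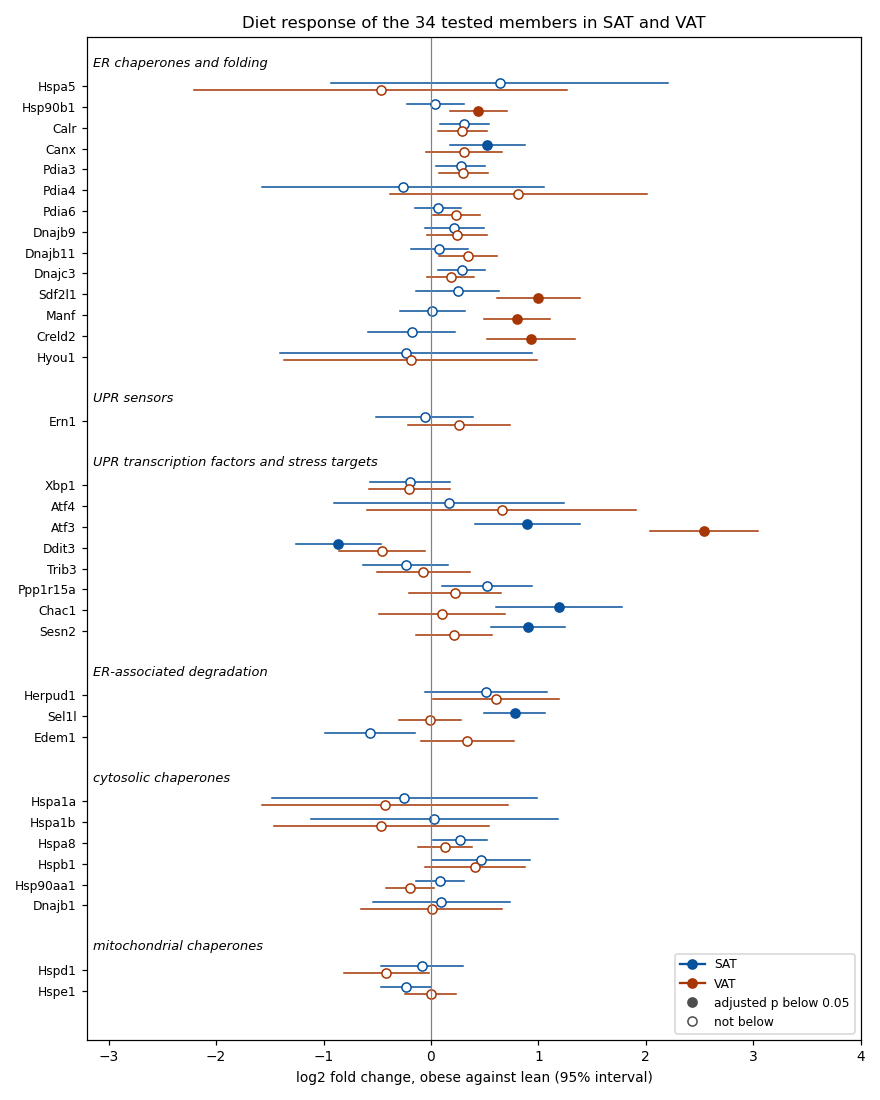
Log2 fold change between obese and lean mice (horizontal axis) of the 34 tested genes, grouped by compartment, in SAT (blue) and VAT (brown), 4 libraries per group. Lines are 95% intervals and filled points have an adjusted p below 0.05. Filled points of VAT lie among the ER chaperones and at Atf3 (2.54), those of SAT at Canx and among the stress targets and Sel1l, and none lies among the cytosolic and mitochondrial chaperones.

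Sdf2l1 encodes an ER-resident cofactor of BiP (1 row, NM_022324, gene on chromosome 16 from 16948002 to 16950252 of GRCm39). Its level was 22.9, 25.0, 17.3 and 27.3 CPM in VAT of lean replicates 1 to 4 and 66.1, 37.96, 37.5 and 46.8 CPM in VAT of obese replicates 1 to 4. Every obese VAT library thus lay above every lean one, and the log2 fold change was 1.00 (SE 0.186, adjusted p = 0.000941 by edgeR). In SAT the values were 14.4, 14.7, 14.0 and 15.3 CPM in lean and 21.7, 17.1, 14.4 and 15.9 CPM in obese mice. These groups overlapped, with a log2 fold change of 0.25 (95% interval -0.14 to 0.63, adjusted p = 0.447).

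Creld2 encodes a secreted and ER-resident disulfide isomerase (chromosome 15, 88703795 to 88710890 of GRCm39). In VAT it stood at 49.0, 45.6, 36.4 and 40.6 CPM in lean and 136, 65.9, 56.4 and 71.3 CPM in obese mice. The groups did not overlap and obese replicate 1 stood well above the other 3, with a log2 fold change of 0.93 (SE 0.197, adjusted p = 0.00306). In SAT the levels were 26.4, 28.6, 29.7 and 32.4 CPM in lean and 26.0, 22.8, 28.0 and 26.2 CPM in obese mice. The log2 fold change there was -0.18 (95% interval -0.59 to 0.23, adjusted p = 0.624).

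Manf, an ER protein that is also secreted under stress (chromosome 9, 106715511 to 106769727 of GRCm39), showed the same separation in VAT. In lean mice VAT held 91.1, 97.2, 69.1 and 83.1 CPM, and in obese mice 195, 131, 116 and 153 CPM, for a log2 fold change of 0.80 (SE 0.148, adjusted p = 0.000894). The SAT values were 97.1, 86.2, 94.2 and 104 CPM in lean and 93.1, 84.9, 94.6 and 112 CPM in obese mice. They overlapped throughout, with a log2 fold change of 0.01 (95% interval -0.29 to 0.31).

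Hsp90b1, the ER member of the HSP90 family (chromosome 10, 86526073 to 86541446 of GRCm39), had 2 ERSE matches in its promoter, printed above. Its level was 1262, 1529, 1172 and 1350.2 CPM in VAT of lean mice and 2372, 1650.4, 1472 and 1729 CPM in that of obese mice. Here the groups overlapped, since obese replicate 3 lay below lean replicate 2, and the log2 fold change was 0.44 (SE 0.128, adjusted p = 0.0266). Without obese replicate 1, which stood highest, it fell to 0.24 (adjusted p = 0.188) and was no longer called, and the call was also lost without lean replicate 1, 3 or 4 or obese replicate 2 or 4 (0.38 to 0.46, adjusted p = 0.0509 to 0.118). In all 9 of 15 alternative settings lost it. Among these were a fit of the VAT libraries alone (0.42, adjusted p = 0.103) and no filter on low counts (0.38, adjusted p = 0.105). The log2 fold changes of Sdf2l1, Manf and Creld2 without obese replicate 1 were 0.78, 0.61 and 0.56, with adjusted p of 0.00357, 0.00780 and 0.0145.

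**Figure D2:**
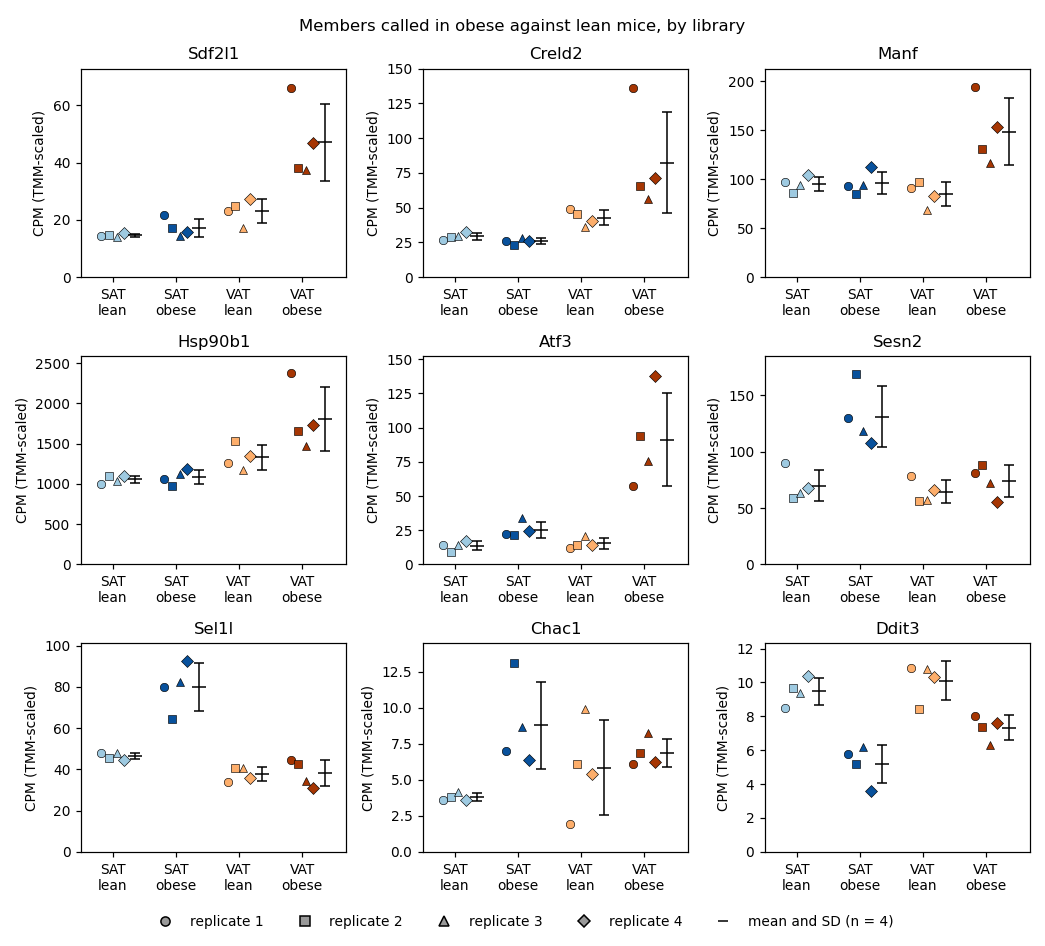
TMM-scaled CPM (vertical axes, from 0) of 9 genes called in obese against lean mice, by group and library. Symbols mark the replicate and the line and bar beside them the mean and SD of 4 libraries. Sdf2l1, Creld2, Manf, Hsp90b1 and Atf3 are highest in obese VAT, and Sesn2, Sel1l and Chac1 are highest on average in obese SAT, where Ddit3 is lowest.

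Of the remaining ER chaperones, Canx (calnexin) in SAT was the 1 called, with 18.0, 15.7, 17.5 and 15.5 CPM in lean and 21.2, 23.9, 25.7 and 25.7 CPM in obese mice. Its log2 fold change was 0.53 (SE 0.169, adjusted p = 0.0471), and its 3 rows held 3836 counts in all. However, 8 of 15 alternative settings lost this call. Among these were leaving out lean replicate 2, 3 or 4 or obese replicate 2, 3 or 4. The estimate then stayed close to the full one (0.49 to 0.55, adjusted p = 0.0913 to 0.11). Calr, calreticulin, had 989 to 1063 CPM in lean and 1161 to 1345 CPM in obese SAT, without overlap, yet its log2 fold change of 0.31 did not pass (adjusted p = 0.0715); DESeq2 (adjusted p = 0.0356) and a fit of the SAT libraries alone (adjusted p = 0.0485) called it. In VAT the estimate for Calr was 0.29 (adjusted p = 0.0954).

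The glycoprotein isomerase Pdia3 gave 0.28 in SAT and 0.30 in VAT (adjusted p = 0.11 and 0.0831), and the disulfide isomerase Pdia6 gave 0.07 and 0.24 (adjusted p = 0.747 and 0.164). The J-domain cochaperones of BiP were likewise not called: Dnajb9 at 0.22 and 0.25, Dnajb11 at 0.08 and 0.35, and Dnajc3 at 0.29 and 0.18 in SAT and VAT. Their intervals reached at most 0.50 in SAT and 0.62 in VAT. The intervals for Hspa5, Hyou1 and Pdia4 each spanned more than 2 log2 units, from -0.93 to 2.21 for Hspa5 in SAT, so that neither a rise nor a fall was detectable at their counts. Over the 14 tested ER chaperones, 11 log2 fold changes were above 0 in SAT (median 0.15) and 12 in VAT (median 0.30), where all 13288 rows gave 6717 (median 0.01) and 6856 (median 0.02). The 7 ER chaperones with an ERSE match had a median of 0.29 in both depots, and the 5 searched without a match had medians of 0.22 in SAT and 0.35 in VAT.

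Of the sensors, Ern1 (IRE1) alone passed the filter. Its level was 2.97 to 5.61 CPM in all SAT and 3.30 to 5.09 CPM in all VAT libraries, and its log2 fold changes were -0.06 (95% interval -0.51 to 0.39) in SAT and 0.26 (-0.22 to 0.73) in VAT. Eif2ak3 and Atf6, with 4 rows each, held 34 and 45 counts in total and were not tested. Xbp1, the transcription factor whose mRNA IRE1 splices, had 29.5 to 52.4 CPM in lean and 31.6 to 36.4 CPM in obese SAT. In VAT it had 38.2 to 66.5 CPM in lean and 38.4 to 50.8 CPM in obese mice. Its log2 fold change was -0.20 in both depots (adjusted p = 0.541 and 0.561), and its spliced and unspliced forms are not told apart by these counts.

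Atf3, a stress-induced repressor and activator of the ATF/CREB family (chromosome 1, 190902493 to 190950241 of GRCm39), had the largest log2 fold change of the tested members in VAT. It stood at 14.6, 9.12, 14.1 and 16.95 CPM in lean and 21.9, 21.3, 33.8 and 24.4 CPM in obese SAT, and every obese library lay above every lean one. The log2 fold change in SAT was 0.90 (SE 0.236, adjusted p = 0.0158), and it was lost without lean replicate 2 (0.74, adjusted p = 0.0745) or obese replicate 3 (0.73, adjusted p = 0.0749). In VAT it rose from 12.1, 14.0, 21.0 and 14.3 CPM to 57.7, 93.9, 75.9 and 137 CPM, 5.83-fold on the fitted scale (log2 fold change 2.54, SE 0.243, adjusted p = 3.74e-07). The VAT groups were again fully separated, and the call held under all 15 alternative settings.

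Of the 8 stress transcription factors and targets, Atf3, Sesn2 and Chac1 were called higher and Ddit3 lower in SAT. Sesn2 (sestrin 2, a stress-induced inhibitor of mTORC1 signalling) had 89.7, 58.9, 63.4 and 67.6 CPM in lean and 129.9, 169, 118 and 107 CPM in obese SAT. The groups did not overlap and the log2 fold change was 0.90 (SE 0.167, adjusted p = 0.000961). Chac1, a glutathione-degrading enzyme, had 3.62, 3.79, 4.18 and 3.603 CPM in lean and 6.98, 13.1, 8.66 and 6.38 CPM in obese SAT. It too was separated, with a log2 fold change of 1.19 (SE 0.281, adjusted p = 0.00764).

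Ddit3 encodes CHOP, the stress factor linked to ER-stress-induced cell death, and it was the member that fell. Its main row had 8.48, 9.68, 9.40 and 10.4 CPM in lean and 5.75, 5.17, 6.19 and 3.61 CPM in obese SAT, a log2 fold change of -0.86 (SE 0.190, adjusted p = 0.00473) without overlap. In VAT the obese values of 8.02, 7.40, 6.30 and 7.60 CPM also lay below the lean values of 10.8, 8.41, 10.8 and 10.3 CPM, but the log2 fold change of -0.46 did not pass (adjusted p = 0.150). Ddit3 has 4 rows, so that these counts are a part of its reads.

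In VAT, Sesn2 and Chac1 gave log2 fold changes of 0.22 and 0.10, and neither passed (adjusted p = 0.493 and 0.877). Ppp1r15a (GADD34, which restores translation after stress) had 23.8 to 37.3 CPM in lean and 39.8 to 49.9 CPM in obese SAT, separated but not called (log2 fold change 0.52, adjusted p = 0.101), though a fit of the SAT libraries alone called it (adjusted p = 0.0427). Trib3, a pseudokinase induced by ATF4 and CHOP, gave -0.23 in SAT and -0.07 in VAT, and Atf4, with 570 counts, gave 0.17 and 0.66 with wide intervals. None of these 4 estimates passed the test. Over all 13288 rows, 9.61% had obese SAT libraries all above lean ones and 7.64% all below, while among the 34 tested members these were 9 and 1. In VAT 8.35% and 5.00% of rows were so separated, and 5 and 2 of the tested members.

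ER-associated degradation removes misfolded proteins from the ER to the proteasome. Sel1l, the adaptor of the HRD1 ligase (chromosome 12, 91772799 to 91815982 of GRCm39), had 47.9, 45.4, 47.9 and 44.7 CPM in lean and 80.1, 64.2, 82.2 and 92.3 CPM in obese SAT. The log2 fold change was 0.78 (SE 0.136, adjusted p = 0.000574), the smallest adjusted p of the members in SAT. In VAT it had 33.8, 40.7, 40.7 and 35.9 CPM in lean and 44.7, 42.6, 34.4 and 31.1 CPM in obese mice, with a log2 fold change of -0.01 (95% interval -0.30 to 0.28). Its partner, the ligase Syvn1, held 54 counts and was not tested.

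Herpud1, a membrane component of the degradation complex, was not called in SAT (0.51, adjusted p = 0.249) or VAT (0.61, adjusted p = 0.193). Its VAT level in lean replicate 1 was 14.0 CPM against 4.35 to 5.39 CPM in the other 3, and without that mouse the VAT log2 fold change was 0.88 (adjusted p = 0.0115). Edem1, which extracts misfolded glycoproteins from the folding cycle, gave -0.57 in SAT (adjusted p = 0.0736) and 0.34 in VAT (adjusted p = 0.356), and was called lower in SAT without lean replicate 2 or obese replicate 4 (-0.70 in both, adjusted p = 0.0427 and 0.0441). Its values rest on a predicted non-coding transcript (an XR row), which held 1600 of the 1611 counts of its 3 rows.

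No cytosolic or mitochondrial chaperone was called between diets in either depot by edgeR or by DESeq2 with all libraries. Hspb1 was called higher in SAT without lean replicate 1 (0.64, adjusted p = 0.0463) and Hspd1 lower in VAT without obese replicate 1 (-0.64, adjusted p = 0.0261). Hspa8, the constitutive cytosolic HSP70, had 357 to 403 CPM in lean and 411 to 498 CPM in obese SAT, separated with a log2 fold change of 0.27 (adjusted p = 0.159). In VAT its estimate was 0.13 (95% interval -0.12 to 0.38). Hsp90aa1, the inducible cytosolic HSP90, had 804 to 963 CPM in lean and 765 to 788 CPM in obese VAT. All its obese VAT libraries lay below the lean ones, opposite to its ER paralog Hsp90b1, yet the log2 fold change was -0.19 (adjusted p = 0.298).

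The small heat shock protein Hspb1 gave 0.46 in SAT and 0.41 in VAT (adjusted p = 0.192 and 0.278), and the HSP40 cochaperone Dnajb1 gave 0.10 and 0.01. Hsph1, an HSP70 exchange factor with 4 rows, had 1 to 5 counts per library in lean and 10 to 15 in obese SAT on its main row, which was not tested. With the counts of its rows summed, the log2 fold changes were 1.04 in SAT and -0.05 in VAT, and neither passed (adjusted p = 0.124 and 0.967). The mitochondrial chaperonin Hspd1 (HSP60) gave -0.08 in SAT and -0.42 in VAT. The latter had an interval of -0.81 to -0.02 and an adjusted p of 0.184. A second tested row of Hspd1 gave 0.27 in SAT and -0.36 in VAT (adjusted p = 0.603 and 0.509), so that its sign in SAT differed by row. Its cochaperonin Hspe1 gave -0.23 and -0.00 (95% intervals -0.46 to 0.00 and -0.24 to 0.23), and neither passed. In VAT the median log2 fold change was 0.30 over ER, -0.09 over cytosolic (6 tested) and -0.21 over mitochondrial chaperones, and in SAT 0.15, 0.09 and -0.16. Without lean replicate 1 the VAT medians were 0.31 (13 tested), 0.37 and -0.25, so that the sign of the cytosolic median rests on that mouse. The unadjusted p was below 0.05 for 2 cytosolic chaperones in SAT (Hspa8 and Hspb1) and for Hspd1 in VAT.

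**Figure D3:**
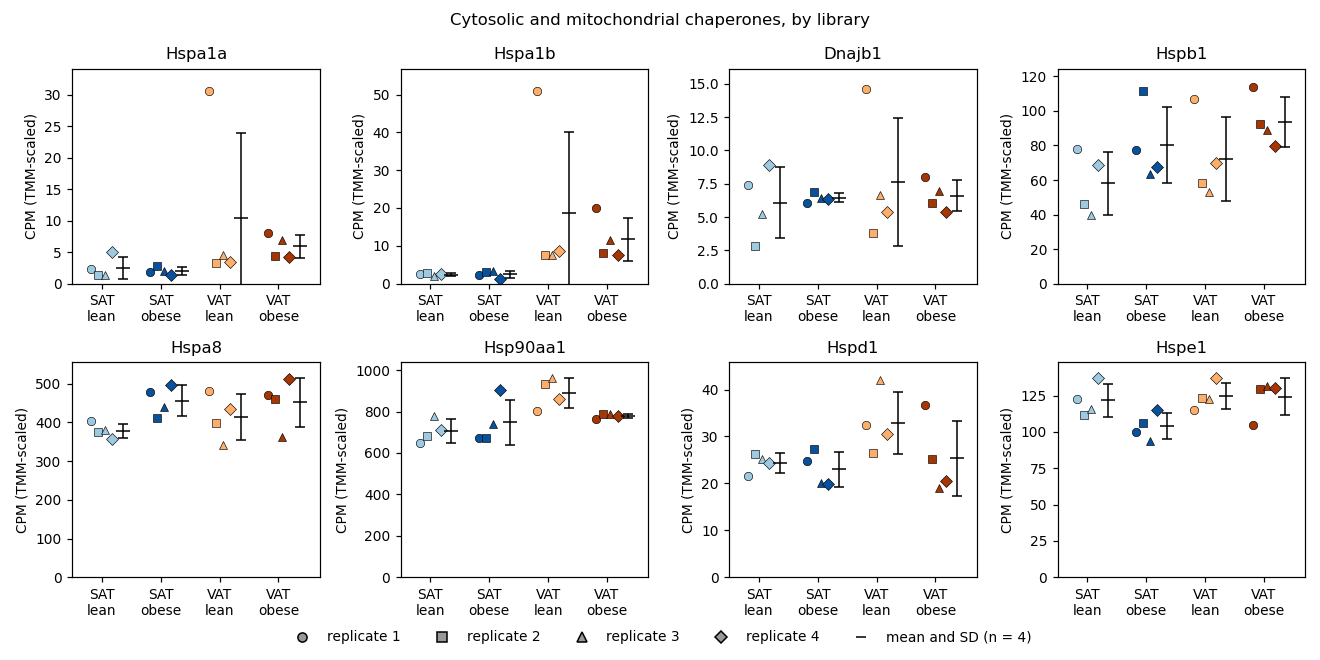
TMM-scaled CPM (vertical axes, from 0) of the 6 tested cytosolic and the 2 mitochondrial chaperones, by group and library, with the mean and SD of 4 libraries; SD bars that reach below 0 are cut there. Hspa1a and Hspa1b stand higher in VAT than in SAT, with lean VAT replicate 1 far above the rest at 30.6 and 51.0 CPM, and the obese and lean groups of most other genes overlap within a depot.

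The diet response was then compared between the depots, with each mouse as a block. The VAT response minus the SAT response was called for 5 members, 3 in the higher and 2 in the lower direction, where 0.888% and 1.29% of all rows were called. It was 1.58 (SE 0.285, adjusted p = 0.00317) for Atf3, 1.05 (SE 0.242, adjusted p = 0.0209) for Creld2 and 0.78 (SE 0.185, adjusted p = 0.0274) for Manf, all on the log2 scale and toward a larger rise in VAT. It was -0.72 (SE 0.157, adjusted p = 0.0153) for Sesn2 and -0.78 (SE 0.207, adjusted p = 0.0484) for Sel1l, toward a larger rise in SAT. Without the mouse as a block, Atf3 alone remained called of these 5. The log2 differences of the others stayed close to those with the block, at 1.11 for Creld2, 0.79 for Manf, -0.69 for Sesn2 and -0.79 for Sel1l.

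The Atf3 difference was called whichever mouse was left out, and the other 4 were not. Manf lost the call without lean replicate 3 or 4 or obese replicate 1, 2 or 4 (0.59 to 0.83, adjusted p = 0.0518 to 0.118), and Creld2 without lean replicate 3 or 4 or obese replicate 1 or 4 (0.76 to 1.101, adjusted p = 0.0549 to 0.0872). Sesn2 lost it without lean replicate 2 or 3 or obese replicate 4 (-0.73 to -0.67, adjusted p = 0.0534 to 0.0562), and Sel1l without lean replicate 2, 3 or 4 or obese replicate 3 or 4 (-0.83 to -0.61, adjusted p = 0.0713 to 0.193). Their direction held in every case.

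Sdf2l1 had a difference of 0.78 as well, which missed the threshold in edgeR (adjusted p = 0.0567) but not in DESeq2 (0.76, adjusted p = 0.0239), and Hsp90b1 one of 0.39 (adjusted p = 0.233). Chac1 differed by -0.98 (adjusted p = 0.185), so that a response confined to SAT was not shown for it. Canx and Ddit3, called in SAT, had differences of -0.19 (95% interval -0.72 to 0.34) and 0.45 (-0.17 to 1.08). All 6 tested cytosolic chaperones had a difference below 0, from -0.29 for Hspa1b to -0.06 for Hspb1 (median -0.19), and none passed. Without lean replicate 1 the differences of Hspa1a and Hspa1b were 0.76 and 0.46, and the median was -0.03. Of the 14 ER chaperones, 10 were above 0 (median 0.19), against 6931 of the 13288 rows (median 0.03).

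The depots also differed within a diet. In lean mice, 6 members were higher in VAT than in SAT of the same mice and 1 was lower, where 7.98% and 6.84% of all rows were called. In obese mice 10 were higher and 3 lower, against 15.9% and 13.5% of all rows. The 2 comparisons rest on different mice. Sdf2l1 and Creld2 were higher in VAT in 4 of 4 mice of each diet, by 0.64 (adjusted p = 0.00653) and 0.53 (adjusted p = 0.0409) on the log2 scale in lean and by 1.42 (adjusted p = 1.5e-07) and 1.58 (adjusted p = 2.66e-07) in obese mice. For Creld2 in lean mice the call was lost without lean replicate 1, 2 or 3 (0.43 to 0.62, adjusted p = 0.0605 to 0.176).

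Further ER chaperones differed by less. Hsp90b1 was higher in VAT of obese mice by 0.71 (adjusted p = 4.03e-05, 4 of 4 mice) and by 0.32 in lean mice, which missed the threshold (adjusted p = 0.0539). Pdia3 was called in both diets, at 0.31 and 0.34 (adjusted p = 0.0420 and 0.0132), and Pdia6 (0.36, adjusted p = 0.00833) and Manf (0.60, adjusted p = 0.00110) in obese mice. Manf in lean mice was higher in VAT in 1 of 4 mice, with a log2 difference of -0.17 (95% interval -0.45 to 0.10). Edem1, on its XR row, was higher in VAT of obese mice by 0.67 (adjusted p = 0.0162) and Atf3 by 1.81 (adjusted p = 2.27e-07). The Pdia3 call was lost in lean mice without any 1 of the 4 lean mice (0.21 to 0.36, adjusted p = 0.0525 to 0.281) and in obese mice without obese replicate 1 or 2 (0.29 in both), as was that of Edem1 (0.51 and 0.50, adjusted p = 0.0991 and 0.130).

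Trib3, Sesn2 and Sel1l ran the other way. Trib3 was lower in VAT than in SAT in all 8 mice: lean mice had 20.2, 14.9, 19.4 and 14.4 CPM in SAT and 6.37, 9.48, 11.9 and 9.69 CPM in VAT. Its log2 difference was -0.80 (SE 0.207, adjusted p = 0.00968) in lean and -0.69 (SE 0.202, adjusted p = 0.0126) in obese mice, the latter lost without obese replicate 2 (-0.46, adjusted p = 0.124). In obese mice Sesn2 and Sel1l were also lower in VAT, with log2 differences of -0.82 (adjusted p = 5.58e-06) and -1.07 (adjusted p = 6.39e-06), each in 4 of 4 mice. In lean mice the same differences were -0.11 and -0.29 and did not pass, although both genes were lower in VAT in 4 of 4 mice.

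Hspa1b, a stress-inducible cytosolic HSP70 gene (chromosome 17, 35175412 to 35178214 of GRCm39), had the largest log2 difference between depots of the tested members in each diet with all libraries. It had 2.47, 2.66, 1.90 and 2.54 CPM in SAT and 51.0, 7.45, 7.59 and 8.70 CPM in VAT of lean mice. In obese mice it had 2.15, 2.96, 3.44 and 1.15 CPM in SAT and 19.9, 8.05, 11.5 and 7.60 CPM in VAT. All 8 VAT values lay above all 8 SAT values, with log2 differences of 2.51 (SE 0.386, adjusted p = 5.56e-05) in lean and 2.22 (SE 0.355, adjusted p = 4.8e-05) in obese mice. Leaving out lean replicate 1, whose VAT library stood apart, gave 1.74 (adjusted p = 0.000903) in lean mice. Without obese replicate 1 the difference in obese mice was 1.88 (adjusted p = 0.00151), below the 1.91 of Atf3.

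Hspa1a, the near-identical neighbour of Hspa1b on chromosome 17, is uncertain as a separate gene, because reads common to both may be split or lost. It had 2.31, 1.40, 1.33 and 5.09 CPM in SAT and 30.6, 3.28, 4.49 and 3.41 CPM in VAT of lean mice. Its log2 difference in lean mice was 1.61 (adjusted p = 0.0194) and fell to 0.75 (adjusted p = 0.285) without lean replicate 1 or to 1.56 (adjusted p = 0.0776) without lean replicate 3. In obese mice it was 1.53 (adjusted p = 0.00898), and missed the threshold without obese replicate 1 or 3 (1.34 and 1.41, adjusted p = 0.0548 and 0.0542). The cytosolic Hsp90aa1 was higher in VAT of lean mice by 0.34 (adjusted p = 0.0232, lost without lean replicate 2 or 3 at 0.30 and 0.35), and by 0.07 in obese mice (adjusted p = 0.635). Beside these genes, 13 tested immediate early genes that answer to tissue handling had 4 members higher in VAT in lean and 6 in obese mice, with summed levels of 554 to 947 CPM in lean SAT, 645 to 891 CPM in obese SAT, 741 to 931 CPM in lean VAT and 880.3 to 1022 CPM in obese VAT. Between diets, 1 of these 13 was called higher in VAT and 0 in SAT, against 6.84% and 6.21% of all rows. Their log2 fold changes were above 0 for 11 in VAT (median 0.33) and for 9 in SAT (median 0.27). The part of tissue handling in the depot difference or in the diet response of Atf3 was not tested. In VAT itself the estimates for Hspa1a and Hspa1b between diets were -0.43 and -0.46, and became 0.58 and 0.46 without lean replicate 1, so that no direction can be given.

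**Figure D4:**
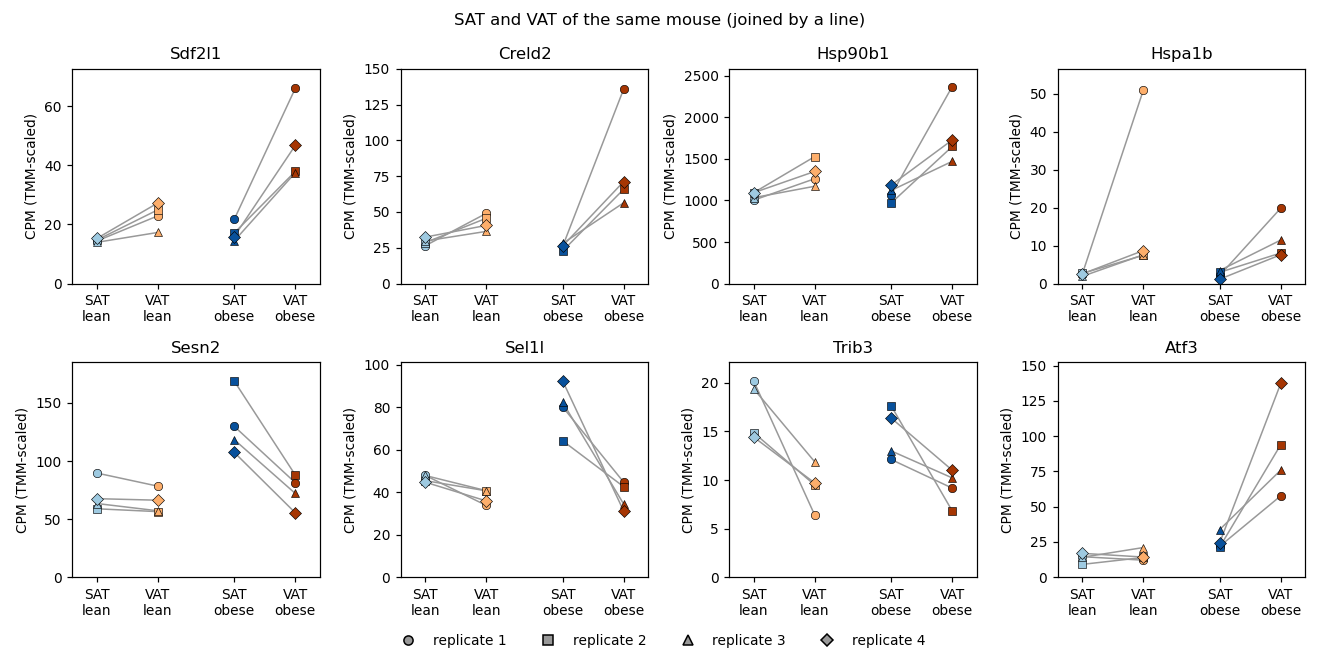
TMM-scaled CPM (vertical axes, from 0) of 8 genes in SAT and VAT of the same mouse, joined by a line, for the 4 lean (left) and 4 obese (right) mice. Sdf2l1, Creld2, Hsp90b1 and Hspa1b rise from SAT to VAT in all 8 mice and Atf3 in the 4 obese mice, while Trib3, Sesn2 and Sel1l fall in all 8.

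Markers of other cell types moved with the VAT values. The 8 plasma cell markers, 4 of them tested, summed to 547, 198, 88.7 and 213 CPM in VAT of lean mice and to 1871, 910.2, 555 and 1116 CPM in that of obese mice, with 3 of 4 called higher. In SAT the sums were 10.5 to 18.5 CPM in lean and 6.54 to 47.6 CPM in obese mice, with 0 of 4 called. Of these markers Irf4 was listed at 0 in every group and Derl3 in both lean groups. In obese VAT the order of the 4 libraries by this sum (replicates 1, 4, 2 and 3) was that of Sdf2l1, Creld2, Manf and Hsp90b1. In lean VAT replicate 3 was lowest for the sum and for these 4 genes, while the order of the other libraries differed. For 2 of the 4 tested markers the diet response was also called larger in VAT than in SAT, as it was for 2 of 6 B cell markers. Of the 6 tested macrophage markers 0 were so called by edgeR, with all 6 differences above 0 (median 0.52). In the lower direction, 1 of 8 adipocyte markers and 1 of 5 tested endothelial markers were called (medians -0.34 and -0.38).

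Macrophage markers (8 genes, 6 tested) summed to 2160 to 2882 CPM in lean and 4433 to 6827 CPM in obese VAT, with 5 of 6 called higher. In SAT they summed to 1240.2 to 1711 CPM in lean and 1940 to 2874 CPM in obese mice, with 4 of 6 called higher. For Atf3, replicate 4 was highest and replicate 1 lowest in obese VAT, as for the macrophage sum. In lean VAT the 2 did not match, since replicate 3 was highest for Atf3 and lowest for the macrophage sum. B cell markers summed to 43.0 to 311 CPM in lean and 265 to 496 CPM in obese VAT, and 3 of 8 adipocyte markers were called lower in obese VAT. T cell markers summed to 10.8 to 15.9 CPM in lean and 25.6 to 54.6 CPM in obese VAT, with 2 of 4 tested called higher there and 0 in SAT. Intestinal epithelium markers summed to 14.96 to 64.6 CPM in lean and 13.6 to 18.5 CPM in obese VAT, with 3 of 6 called lower. Markers of the exocrine pancreas summed to 41.6 to 60.9 CPM in lean and 84.1 to 91.3 CPM in obese VAT, with 1 of 3 tested called higher, and to 71.1 to 143 CPM in lean and 163 to 208 CPM in obese SAT, where 1 of 3 was called higher as well. In VAT the other 2 of the 3 tested pancreatic markers had log2 fold changes below 0 (median of the 3 -0.55). Between depots, higher levels in VAT were called for 3 of 4 plasma cell markers in each diet, 5 and 6 of 6 B cell markers and 4 and 6 of 6 macrophage markers in lean and obese mice, and 1 and 4 of 4 T cell markers, while 2 and 6 of 8 adipocyte markers were lower. In addition, 4 of 6 intestinal markers were higher in VAT in lean mice. All 8 mesothelial markers were higher in VAT in both diets, summing to 263 to 649.97 CPM in VAT and at most 1.68 CPM in SAT. Of 3 tested pancreatic markers, 2 were higher and 1 lower in VAT of lean mice, and 1 and 1 in obese mice. Of 5 tested endothelial markers, 0 were called in lean mice and 2 were lower in VAT of obese mice. The part of these cell types in the values of the chaperones, Atf3 and the other members was not tested.

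**Figure D5:**
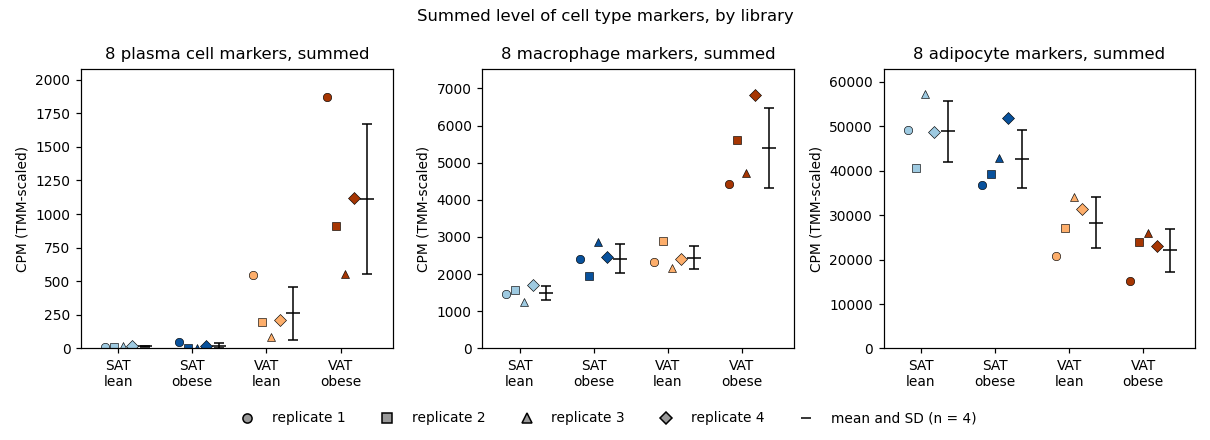
Summed TMM-scaled CPM (vertical axes, from 0) of 8 markers each of plasma cells, macrophages and adipocytes, by group and library, with the mean and SD of 4 libraries. Plasma cell markers reach 1871 CPM in obese VAT replicate 1 and stay at or below 47.6 CPM in SAT, macrophage markers are highest in obese VAT, and adipocyte markers are lower in VAT than in SAT.

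Other genes of the same compartments were taken from longer lists. Of 41 other tested genes of ER folding, translocation and degradation, 1 was higher and 1 lower in obese SAT (2.44% each, against 6.21% and 4.84% of all rows). In obese VAT 6 were higher and 2 lower (14.6% and 4.88%, against 6.84% and 4.08% of all rows). The VAT genes included Wfs1 (wolframin, an ER membrane protein, 0.91, adjusted p = 0.000492), Sec11c (a signal peptidase subunit, 0.74, adjusted p = 0.0232) and Ero1b (an oxidase that recharges disulfide isomerases, 0.72, adjusted p = 0.00354). For Ero1b the VAT response also exceeded that of SAT, by 0.81 (adjusted p = 0.0483). The 2 called lower in VAT had smaller absolute log2 fold changes than the genes named there. In SAT the called genes were Ube2j1, a ubiquitin-conjugating enzyme of the ER (0.39, adjusted p = 0.0323), and Derl1. The latter, a component of the retrotranslocation channel, changed by -0.35 (adjusted p = 0.0354). Derl1 was not confined to SAT in its fall, with 530 to 640 CPM in lean and 351 to 468 CPM in obese VAT, without overlap.

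Of 19 other integrated stress response genes, 2 rose and 2 fell in each depot, 10.5% in each direction, against the 4.08% to 6.84% of all rows given above. Ddit4 (REDD1, an inhibitor of mTORC1) rose in both, by 2.09 in SAT (adjusted p = 0.000195) and 2.32 in VAT (adjusted p = 9.68e-05). In SAT the hormone Fgf21 rose by 1.71 (adjusted p = 0.0291). Its level was 0.190 to 1.70 CPM in lean and 1.38 to 3.38 CPM in obese SAT, overlapping and near the filter of 1 CPM. The growth arrest gene Gadd45a fell by 0.88 on the log2 scale in SAT (adjusted p = 0.00570). In VAT the amino acid transporter Slc7a5 rose by 0.90 (adjusted p = 0.0261). Asparagine synthetase, Asns, a classic ATF4 target, fell there by 1.14 on the log2 scale (adjusted p = 0.0112). Asns, with 3 transcript rows, had 3.64 to 6.37 CPM in lean and 1.96 to 2.63 CPM in obese VAT.

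Of 37 other cytosolic chaperones and heat shock factors, 1 rose and 2 fell in SAT and 2 rose in VAT. Those called higher made up 2.7% in SAT and 5.41% in VAT, and those lower 5.41% in SAT, near or below the shares of all rows. Hspb7, a small heat shock protein of muscle, had 29.8 to 157 CPM in lean and 13.3 to 20.6 CPM in obese SAT, and 17.4 to 43.3 CPM in lean and 57.6 to 93.2 CPM in obese VAT. It fell by 2.20 on the log2 scale in SAT (adjusted p = 0.000269) and rose by 1.44 in VAT (adjusted p = 0.00957), and the difference of 3.36 passed (adjusted p = 1.31e-05). Bag2, an HSP70 cochaperone, rose by 1.11 in SAT (adjusted p = 0.000184), Fkbp4, a cochaperone of HSP90, changed by -0.31 there (adjusted p = 0.0427), and Fkbp5, a cochaperone of HSP90 and the glucocorticoid receptor, rose by 1.36 in VAT (adjusted p = 0.000876). Of 17 other mitochondrial chaperones and proteases, 1 fell in each depot (5.88%, near the 4.84% in SAT and 4.08% in VAT of all rows): Clpb, a disaggregase, in SAT (-0.69, adjusted p = 0.0242) and Hspa9, the mitochondrial HSP70, in VAT (-0.40, adjusted p = 0.0261).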

How the data were processed

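Poly(A) RNA from SAT and VAT of 4 lean and 4 obese mice was sequenced in 16 libraries. The authors trimmed reads with Trim Galore 0.6.6, aligned them to GRCm39 with HISAT2 2.2.0 and counted them per RefSeq transcript row with HTSeq 0.13.5. The deposited counts of 130343 rows were used here. The deposited CPM columns equal count divided by library total and were used as a check only. The kit is directional, but the strand setting of the counting and its treatment of shared reads are not given in the sources used here, so overlapping genes may share reads.

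Each of the 38 genes was represented by its row with the most counts over all libraries. Members and lists were chosen with earlier results of these data known. All 13288 rows with more than 1 CPM in at least 3 of 16 libraries were scaled by TMM and tested by the quasi-likelihood F-test of edgeR 4.0.16 (R 4.3.3), with a Benjamini-Hochberg adjusted p below 0.05 over all rows as the call. Diet was tested within each depot on 4 group means, and depot and the difference of the diet response with the mouse as a block. The study likewise treats samples of 1 mouse as paired. Libraries of SAT and VAT with the same replicate number in their titles were taken as those of 1 mouse. Their residuals correlated with a median r of 0.0759 (8 mice, -0.009 to 0.173). For different mice of 1 diet the median was -0.0392 (24 pairs, -0.154 to 0.121). The 2 ranges overlap, and residuals within a group sum to 0, so that the 2 medians are not independent. Fold changes are log2, SE is the log2 fold change over the square root of F, and intervals are 95%. Scripts were tested on simulated counts. Alternatives were RLE scaling, DESeq2 1.42.0, no filter, counts summed per symbol, single-depot fits, other blocking, leaving out each mouse and, added after seeing the data, leaving out the 2 shallow libraries. From the other pathway lists, up to 3 called genes per diet comparison with the largest log2 fold change were named. Of these, Ube2j1 and Sec11c have 2 transcript rows, Asns 3, Ero1b 4 and Clpb 8. Their counts may be a part of their reads. Gene positions are from GENCODE vM39 and promoters from RefSeq.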

Additional observations from a re-analysis of the deposited data

Results flagged for a closer look

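In each group of 4 libraries, the highest or lowest value of every tested member was compared with the rest by Dixon's ratio, which flags about 1 in 20 groups by chance; 7 of 136 groups were flagged. Of these, 5 were the highest value of lean VAT in replicate 1, the library with the fewest counts: Hspa5 at 10.2 CPM (others up to 0.991), Atf4 at 10.8 CPM (up to 2.64), Herpud1 at 14.0 CPM (up to 5.39), Hspa1a at 30.6 CPM (up to 4.49) and Hspa1b at 51.0 CPM (up to 8.70). The Hspa5 and Atf4 values there rest on 16 and 17 counts. Pdia4 was highest in lean SAT replicate 2, at 1.12 CPM or 8 counts, and Hspe1 was lowest in obese VAT replicate 1, at 105 CPM against 129.6 to 132 CPM.

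The diet response of 5 members differed between the depots by the interaction test in edgeR. The difference was larger toward VAT for Atf3 (1.58 on the log2 scale), Creld2 (1.05) and Manf (0.78), and toward SAT for Sesn2 (-0.72) and Sel1l (-0.78). Their adjusted p ranged from 0.00317 to 0.0484.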

How the results depend on the processing

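Counts of called members kept within 1.5 times their value under RLE scaling, DESeq2, no filter, summed counts, single-depot fits and the block of replicate number. With that block, which pairs different mice of the 2 diets by number only, SAT still gave 5 higher and 1 lower member and VAT 5 and 0, with Calr (0.31, adjusted p = 0.0402) in place of Canx (0.52, adjusted p = 0.0540) in SAT. Without the mouse as a replicate block, the difference between depots gave 1 higher and 0 lower member instead of 3 and 2. Creld2, Sel1l, Manf and Sesn2 then had log2 differences of 1.11, -0.79, 0.79 and -0.69 (adjusted p = 0.0538, 0.0505, 0.0699 and 0.179). Between depots in lean mice the fit without this block gave 4 higher members, 3 of them among the 6 called with the block. Pdia3, Creld2 and Hspa1a were lost (0.32, 0.54 and 1.69, adjusted p = 0.0573, 0.0767 and 0.0620). Canx was gained (0.53, adjusted p = 0.0446). The pairing by mouse changed no other count by over 1.5 times.

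Leaving out each mouse in turn gave 3 to 6 higher and 1 to 2 lower members in SAT, 4 to 5 and 0 to 1 in VAT, 2 to 7 and 1 to 1 between depots in lean mice, 7 to 10 and 2 to 4 in obese mice, and 1 to 3 and 0 to 2 for the difference. The lowest counts came without lean replicate 2 or obese replicate 3 in SAT (3 higher), and without lean replicate 3 in the lean depot comparison (2 higher). Without lean replicate 3, 4 or obese replicate 1, 4 the difference had 1 higher member, and without lean replicate 2, 3 or obese replicate 4 it had 0 lower. Without obese replicate 1, Hspd1 was called lower in VAT (-0.64, adjusted p = 0.0261). Without the 2 shallow libraries, SAT had 2 lower members (Edem1 added, -0.59) and VAT 1 (Hspd1, -0.61), Ppp1r15a in SAT (0.50, adjusted p = 0.0259) and Herpud1 in VAT (0.85, adjusted p = 0.0184) were called higher, and Hsp90b1 in VAT was not called (0.26, adjusted p = 0.152). Of 2418 single-gene values under the alternatives, 2195 kept both direction and side of the threshold, 73 lost a call, 27 gained one and 123 changed sign, none of them called under either setting. DESeq2 gave no adjusted p for 2 values, both for genes without a call. Depth is a further limit: several members with more than 1 transcript row hold few counts, and a count of 0 in lean VAT replicate 1 allows up to 2.39 CPM before scaling. This limit covers counting error only. The causes of these changes were not tested.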
